A study of Mus musculus with 8 samples.

Results

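A set of 9 sterol-handling genes is described here across 8 RNA-seq libraries of AML-12 cells. AML-12 is an established line of mouse hepatocytes, the parenchymal cells of the liver. The genes are the liver X receptors Nr1h3 (LXRα) and Nr1h2 (LXRβ), the efflux transporters Abca1, Abcg1, Abcg5 and Abcg8, the receptor targets Mylip and Lpcat3, and the HDL receptor Scarb1. They make up 9 of the 21983 gene symbols in the count table, and all 9 had a row. They were picked by symbol, and they were chosen on this same contrast with its fold changes already known, so their levels and fold changes are a description and carry no p-value.

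The 4 overexpression libraries came from AML-12 cells that the labels give as Gm47544 overexpressed, with no vector named. The 4 control libraries came from AML-12 cells labelled as wild type, and their titles name pLKO.1, a lentiviral vector backbone. The study's title concerns Gm47544, the ubiquitination of hepatic APOC3 and blood triglycerides, and the libraries ask how the transcriptome of a hepatocyte line differs when Gm47544 is overexpressed. Gm47544 itself was not analysed here, so the labels were not checked against the overexpressed gene. The labels give no time, dose or clone, and leave unsaid whether replicate libraries are separate cultures. The p-values below therefore measure only the spread between libraries, which may be technical.

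Liver X receptors are nuclear receptors that bind oxysterols, pair with retinoid X receptors and switch on genes that move cholesterol out of the cell. Abca1 and Abcg1 load cholesterol and phospholipid onto apolipoprotein A-I and HDL, while Abcg5 and Abcg8 form a heterodimer that sends sterols into bile. Mylip is a ubiquitin ligase that marks lipoprotein receptors for degradation, and Lpcat3 makes phospholipids with polyunsaturated chains. Scarb1 takes up cholesteryl ester from HDL and is a main route of reverse cholesterol transport into hepatocytes.

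Total counts per library lay between 11016907 and 17338310 in the overexpression group and between 12256376 and 18965662 in the control group. Control library 3 stood apart from the other controls. Its counts differed from theirs by a chi-square per gene of 49.1 to 102, against 10.8 to 24.9 among the other control pairs and 2.41 to 9.53 among overexpression pairs. Of the 21983 symbols, 5702 (25.9%) had no count in any library, and 11520 passed the filter on low counts and were tested. Levels are given as CPM, counts scaled to a common library size, on library sizes scaled by trimmed-mean factors, and log2 fold changes are overexpression over control. All hepatocyte markers on a list of 13 passed that filter, among them Hnf4a with 310 CPM in overexpression and 348 CPM in control libraries and Krt8 with 2210 and 2170 CPM in the same order. Of the 13 markers 2 were called higher, 5 lower and 6 were not called, with log2 fold changes between -2.25 and 3.58. Over all tested genes 32.3% were called higher and 32.1% lower.

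Promoter windows from RefSeq running from 250 bases before to 50 bases after a start site were found for 7 of the 9 genes. Of these, 3 windows are shown on GRCm38.p6. Abca1, the gene with the largest measured fold change among those with counts in both groups, lies at chr4:53159846-53160145 on the minus strand. Nr1h3, the receptor that was lower in overexpression libraries, lies at chr2:91194986-91195285 on the minus strand. Abcg5, whose window overlaps a window of its partner Abcg8, lies at chr17:84682962-84683261 on the minus strand. Capitals mark matches to the searched motifs other than the GC box: the LXR-element-like repeat, the E-box, the TATA box and the GATA site.
Abca1: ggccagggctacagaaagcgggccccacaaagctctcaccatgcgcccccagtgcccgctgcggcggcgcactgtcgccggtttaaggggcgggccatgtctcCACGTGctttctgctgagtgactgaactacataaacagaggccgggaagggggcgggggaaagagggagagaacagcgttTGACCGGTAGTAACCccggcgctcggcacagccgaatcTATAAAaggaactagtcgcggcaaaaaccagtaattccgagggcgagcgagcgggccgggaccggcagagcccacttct
Nr1h3: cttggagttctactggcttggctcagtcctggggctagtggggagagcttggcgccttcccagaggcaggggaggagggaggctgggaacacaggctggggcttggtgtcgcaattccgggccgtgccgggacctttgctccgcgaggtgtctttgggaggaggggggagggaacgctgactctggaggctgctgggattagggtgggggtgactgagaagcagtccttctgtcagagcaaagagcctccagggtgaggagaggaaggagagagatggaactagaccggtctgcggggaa
Abcg5: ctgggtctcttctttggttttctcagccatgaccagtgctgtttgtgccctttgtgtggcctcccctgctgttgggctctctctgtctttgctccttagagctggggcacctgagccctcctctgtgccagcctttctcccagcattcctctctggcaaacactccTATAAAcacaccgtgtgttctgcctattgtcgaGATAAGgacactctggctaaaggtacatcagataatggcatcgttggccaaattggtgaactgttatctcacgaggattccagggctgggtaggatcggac

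The LXR-element-like motif was searched on both strands as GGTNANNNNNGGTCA, and 68 of 32851 windows (0.207%) held it. Among the 7 genes with a window it was found in Abca1 alone, on the minus strand of the window as printed, with its first base 67 bases before the start site. Apart from the bases between the repeats, the pattern leaves open only the letter at which the Abca1 match differs from GGTCA. Finding it in Abca1 is therefore a description and not an independent result. The E-box CACGTG was in 7.15% of windows and in Abca1. The TATA box TATAAA was in 13.6% of windows and in Abca1, Abcg5, Abcg8 and Mylip. The GATA site GATAAG, a motif of liver and gut GATA factors, was in 7.44% of windows and in Abcg5 and Abcg8. The GC box GGGCGG was in 35.7% of windows and in Abca1, Mylip and Lpcat3. Neither receptor gene had any of the 5 motifs in its window. A match is a description of letters in a window and not of binding.

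The receptor Nr1h3 was lower in every overexpression library than in every control library. Nr1h3 (ENSMUSG00000002108.10, 2:91184061-91202834, minus strand, GRCm38) is the LXR form enriched in liver and macrophages. It had 26.6, 29.0, 22.6 and 26.5 CPM in overexpression libraries 1 to 4, against 76.8, 65.9, 50.4 and 76.3 CPM in control libraries 1 to 4. The groups did not overlap, and control library 3 was the lowest control. The means were 26.2 ± 2.67 CPM with overexpression and 67.3 ± 12.4 CPM in controls (SD, n = 4 each), a log2 fold change of -1.36 (SE 0.15). Of the 11520 tested genes, 434 (3.77%), Nr1h3 included, were at or below that fold change. Without control library 3 it was -1.50. In bulk libraries, fewer cells that express a gene and less of its RNA per cell cannot be told apart.

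Nr1h2 (ENSMUSG00000060601.13, 7:44549616-44553951, minus strand) encodes the ubiquitous LXR form. It had 117, 113, 119.8 and 112 CPM in the overexpression libraries, against 171, 144, 98.9 and 185 CPM in the controls. The overexpression libraries lay close together, and the groups overlapped because control library 3 was below all of them. The means were 116 ± 3.57 CPM with overexpression and 149.8 ± 37.8 CPM in controls (SD, n = 4 each), a log2 fold change of -0.37 (SE 0.16) that was not called. Its log2 fold change was -0.55 (SE 0.0828) without control library 3 and -0.47 (SE 0.0825) with limma-voom and quality weights. After removal of the trend with GC content it was -0.054 (SE 0.0689). Both its size and its SE thus depended on control library 3 and on the processing.

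The balance of the receptors is best read per length. Nr1h3 per kb of exon was 0.302, 0.341, 0.251 and 0.316 of Nr1h2 in overexpression libraries 1 to 4, against 0.597, 0.609, 0.679 and 0.551 in control libraries. The ranges did not overlap, and control library 3, the lowest for both genes, had the highest ratio. The mean ratio was 0.303 ± 0.0378 with overexpression and 0.609 ± 0.0528 in controls (SD, n = 4 each).

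**Figure D1:**
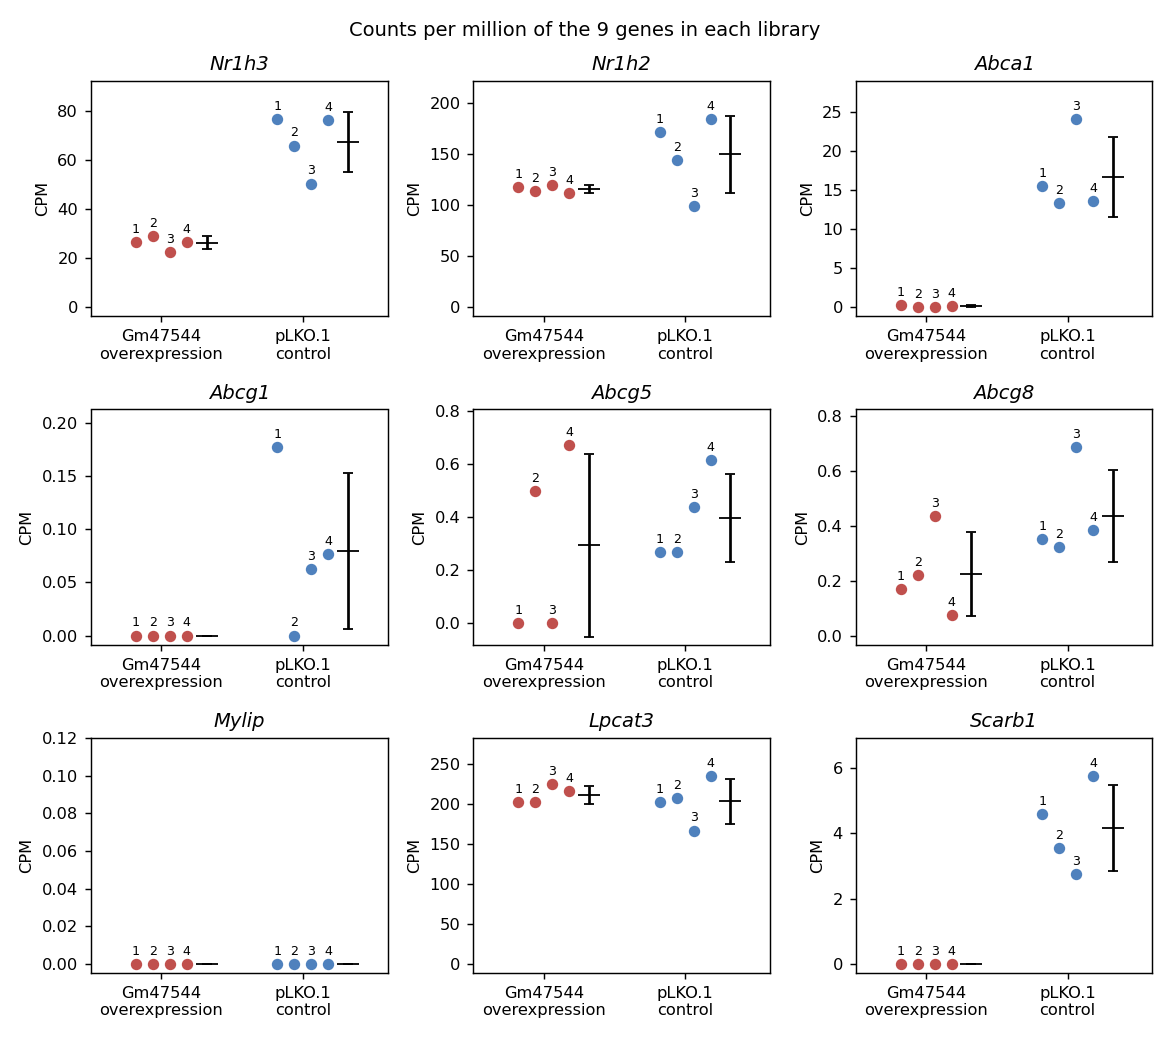
CPM (y axis) of the 9 genes in each overexpression (left, red) and control library (right, blue). Points are libraries with their replicate numbers, the black mark is the mean and the bar the SD (n = 4). Nr1h3, Abca1 and Scarb1 were below the controls in every overexpression library, while Nr1h2, Abcg5, Abcg8 and Lpcat3 overlapped and Mylip was at 0.

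Abca1 was close to absent in overexpression libraries. Abca1 (ENSMUSG00000015243.4, 4:53030787-53159895, minus strand) exports cholesterol and phospholipid to lipid-poor apolipoprotein A-I, the first step in forming HDL. It had 3, 0, 0 and 2 counts in overexpression libraries 1 to 4, against 175, 249, 386 and 177 counts in control libraries. As CPM these were 0.257, 0, 0 and 0.149 with overexpression, against 15.5, 13.4, 24.1 and 13.6 in controls. The groups were far apart, and control library 3 was the highest control, the reverse of its place for Nr1h3 and Nr1h2. The pooled overexpression count was 5 against 987 in controls, so that the control level was 183 times the overexpression level (exact 95% interval 78.2 to 565, counting error only). The log2 fold change in the fit was -7.37 (SE 0.45), and 8 tested genes, Abca1 included, were at or below it. That value rests on few counts: it was -8.24 without overexpression library 1, which held 3 of the 5 counts, and -6.84 without overexpression library 2.

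Scarb1 (ENSMUSG00000037936.15, 5:125277087-125341094, minus strand) is the HDL receptor SR-BI. It had 0 counts in all 4 overexpression libraries, against 52, 66, 44 and 75 counts in control libraries, or 4.60, 3.54, 2.75 and 5.76 CPM. Every control library held it and no overexpression library did. Taking 3 counts over the whole group as the most that a count of 0 allows, it was at least 73.3-fold lower with overexpression than its pooled level in controls. The controls averaged 4.16 ± 1.31 CPM (SD, n = 4), at percentile 7.84 of the tested genes by level per length. It was 1 of 11 tested genes with no overexpression count, while 0 tested genes had no control count.

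Abcg1, Abcg5 and Abcg8 lay below the filter on low counts and were not tested. Abcg1 (ENSMUSG00000024030.7, 17:31057675-31117988, plus strand) moves cholesterol to mature HDL, mainly in macrophages. It had 0 counts in every overexpression library, against 2, 0, 1 and 1 counts in the controls. Both groups were at or close to the floor of 3 counts, so no fold is given. Abcg5 (ENSMUSG00000040505.13, 17:84658234-84683011, minus strand) had 0, 9, 0 and 9 counts with overexpression, against 3, 5, 7 and 8 counts in controls. Its overexpression libraries were split, with no count in libraries 1 and 3. The pooled level with overexpression was 0.844 times that in controls (exact 95% interval 0.429 to 1.63).

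Abcg8 (ENSMUSG00000024254.15, 17:84676302-84700333, plus strand) is the obligate partner of Abcg5 in the bile canalicular membrane. It had 2, 4, 5 and 1 counts with overexpression, against 4, 6, 11 and 5 counts in controls. The groups overlapped, and the pooled overexpression level was 0.497 times that in controls (exact 95% interval 0.229 to 1.02). Abcg5 and Abcg8 lie head to head at their nearest RefSeq start sites. These are 110 bases apart, and the promoter windows around them share 209 bases. A further Abcg8 window, at chr17:84676052-84676351, lies inside the Abcg5 gene model. The gene models share 6710 bases, and their exons share 82 bases. Whether the counting used strand is not stated, so reads in the shared exonic bases cannot be assigned to either gene. Both intervals include equal levels, and no difference between the groups was detected in either transporter subunit.

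The nearest tested gene below the pair was Dync2li1, a light chain of the ciliary dynein motor. It had 1 count over the overexpression libraries against 153 over controls, a control level 142 times that with overexpression (exact 95% interval 25.1 to 5643), and was called lower by the quasi-likelihood test of edgeR after Benjamini-Hochberg correction (adjusted p = 1.1e-06). On the other side, Lrpprc, a regulator of mitochondrial mRNA, averaged 88.5 ± 10.3 CPM with overexpression and 88.0 ± 24.0 CPM in controls and was not called.

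Mylip (ENSMUSG00000038175.10, 13:45389742-45412022, plus strand), the ubiquitin ligase also called IDOL, had 0 counts in all 8 libraries. A count of 0 over all libraries allows up to 0.0264 CPM. Lpcat3 (ENSMUSG00000004270.13, 6:124663027-124704418, plus strand) was the most abundant of the 9 genes. It had 201, 202, 224.5 and 216 CPM in overexpression libraries, against 202, 207, 166 and 235 CPM in controls. The ranges overlapped, with control library 3 lowest of all 8. The means were 211 ± 11.4 CPM with overexpression and 203 ± 28.1 CPM in controls (SD, n = 4 each), a log2 fold change of 0.058 (SE 0.12), and 334 of its exonic bases (10.2%) overlap Emg1 on the other strand.

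Of the 9 genes, 5 were tested, and Abcg1, Abcg5, Abcg8 and Mylip did not pass the filter on low counts. Of these, 3 (Nr1h3, Abca1 and Scarb1) were called lower, where 32.1% of all tested genes were called lower and 32.3% higher, and 0 members were called higher. For the same 3 genes every overexpression library lay below every control library, as for 27.5% of all tested genes. Abca1 and Scarb1, with pooled overexpression counts of 5 and 0, passed the filter only through their control counts. The median log2 fold change of the 5 tested members was -1.36, beside 0.000406 over all tested genes. The members were chosen from this contrast, so nothing is read from these counts or from this median.

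**Figure D2:**
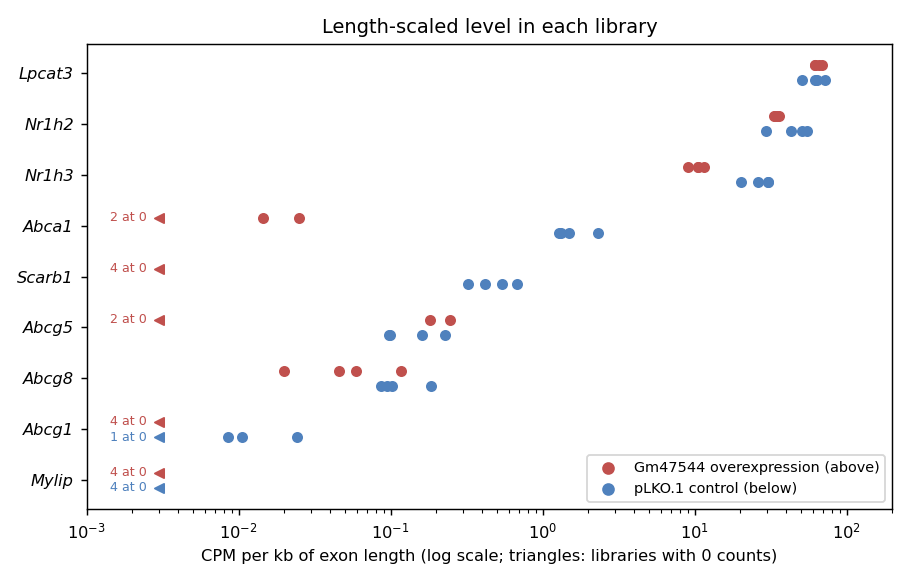
Levels per kb of exon (x axis, CPM per kb, log scale) of the 9 genes (y axis) in each overexpression (red, above) and control library (blue, below); triangles at the left edge stand for libraries with 0 counts, which a log axis cannot show. Lpcat3 and the receptors were high in both groups, and Abca1 and Scarb1 averaged above Abcg5 and Abcg8 in controls and below them with overexpression.

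Per kb of exon, the order in overexpression libraries was Lpcat3 (64.6 ± 3.47 CPM per kb), Nr1h2 (34.5 ± 1.06), Nr1h3 (10.4 ± 1.06), Abcg5, Abcg8 and Abca1 (0.00980 ± 0.0121), with Abcg1, Mylip and Scarb1 at 0 (SD, n = 4). The first 3 did not overlap with their neighbours, and Abcg5, Abcg8 and Abca1 did. In control libraries the order was Lpcat3 (62.0 ± 8.61 CPM per kb), Nr1h2 (44.7 ± 11.3), Nr1h3 (26.8 ± 4.92), Abca1 (1.61 ± 0.490), Scarb1 (0.490 ± 0.154), Abcg5, Abcg8, Abcg1 and Mylip (SD, n = 4). Lpcat3, Nr1h2 and Nr1h3 overlapped with their neighbours there, while Abca1 and Scarb1 stood clear of theirs.

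The directions of Nr1h3, Nr1h2 and Abca1 were kept under all other settings. Over 18 settings, Nr1h3 lay between -1.50 and -1.04 on the log2 scale, and Abca1 between -8.24 and -6.84. Nr1h2 lay between -0.55 and -0.054, with the smallest size after removal of the trend with GC content. Lpcat3 lay between -0.054 without control library 3 and 0.28 after removal of the GC trend, so its sign depended on the setting. Scaling by library totals alone moved the median of all genes by 0.128 on the log2 scale.

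**Figure D3:**
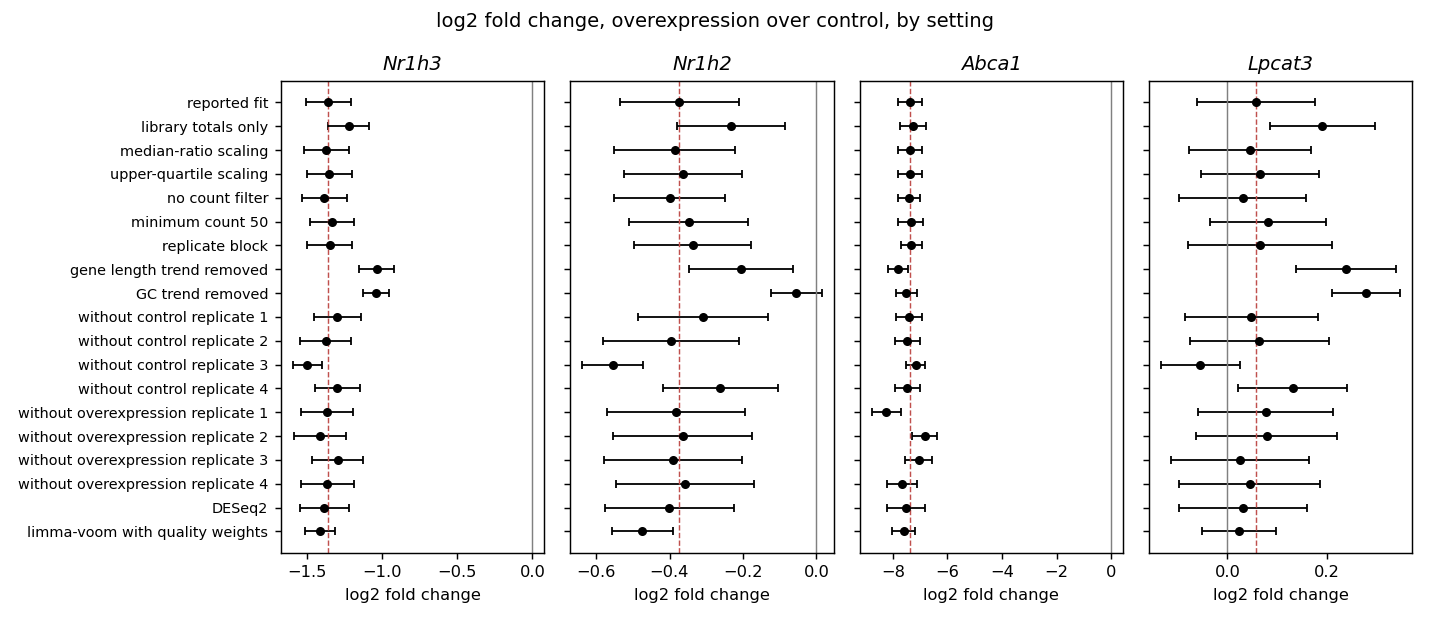
Log2 fold change, overexpression over control (x axis), of Nr1h3, Nr1h2, Abca1 and Lpcat3 under the reported fit and 18 other settings (y axis); points are estimates, bars are ± SE and the dashed line is the reported value. Nr1h3 and Abca1 stayed below 0 in all settings, and Lpcat3 crossed 0 without control library 3.

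Lists of markers of other cell types held genes called in either direction, where 32.3% of all tested genes were called higher and 32.1% lower. The summed level of 14 macrophage markers was 602 to 751 CPM with overexpression and 833 to 1298 CPM in controls, most of it Cd14, and of 5 tested 3 were called lower and 0 higher. Adgre1, Clec4f, Tyrobp, C1qa and C1qb, which define Kupffer cells and other macrophages, were at 0 in all libraries, while Csf1r averaged 10.2 CPM with overexpression and 27.1 CPM in controls. Spi1, the macrophage transcription factor PU.1, had 7 counts over the overexpression libraries and 214 over controls. The untested markers Itgam, with 63 counts over the overexpression libraries and 10 over controls, and Fcer1g, with 17 and 0 in the same order, were higher with overexpression. Cholangiocyte markers summed to 5332 to 6109 CPM with overexpression and 3630 to 5023 CPM in controls, with 1 of 6 tested genes called higher and 2 lower. The higher sum came with Spp1, which averaged 2731 CPM with overexpression and 943 CPM in controls, while Krt19 and Sox9 were called lower. Stellate-cell and fibroblast markers summed to 10.4 to 17.7 CPM with overexpression and 3.94 to 5.75 CPM in controls. Of 11 listed, 2 were tested, with 2 called higher and 0 lower, and Lrat, Col1a2, Col3a1 and Lum were at 0 in all libraries. Endothelial markers summed to 3.77 to 5.23 CPM with overexpression and 2.44 to 5.68 CPM in controls, with overlapping ranges. Of the 3 tested endothelial genes, 2 were called higher and 1 lower. The part of other cell types in the values of Nr1h3, Abca1 and Scarb1 was not tested.

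Other LXR target genes did not move as one. Of 22 listed genes 12 were tested, and 4 were called higher, 2 lower and 6 were not called. Over all tested genes 32.3% were called higher and 32.1% lower. The call counts in this and the following lists are a description beside those shares. The median log2 fold change of the list was 0.12, beside 0.000406 over all tested genes. Without control library 3 the calls were 6 higher and 4 lower, and with the length trend removed 4 higher and 6 lower with a median of -0.10. Mlxipl, the glucose-sensing transcription factor ChREBP, rose to 16.0 ± 2.24 CPM with overexpression, against 8.31 ± 0.372 CPM in controls (edgeR, adjusted p = 9.88e-05). Eepd1, a nuclease-domain protein reported to help ABCA1 work in macrophages, rose by 1.07 on the log2 scale (edgeR, adjusted p = 2.53e-04). Arl4c, a small GTPase, rose by 0.44 on the log2 scale (edgeR, adjusted p = 0.00393). Scd1, the stearoyl-CoA desaturase, fell to 329 ± 22.4 CPM with overexpression, against 488 ± 35.0 CPM in controls (edgeR, adjusted p = 4.19e-04). Scd2 and Fasn had log2 fold changes of -0.16 and -0.24 and were not called, nor was Srebf1, the lipogenic factor SREBP-1, at -0.25 (SE 0.14), a gene named after its values were seen.

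**Figure D4:**
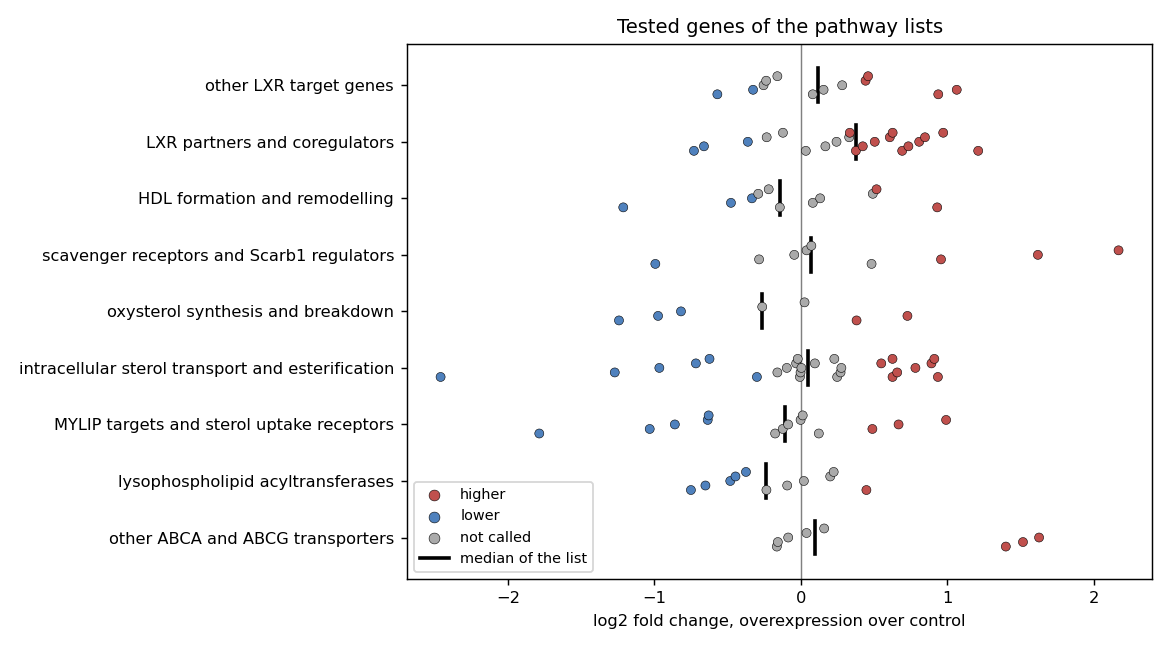
Log2 fold change, overexpression over control (x axis), of the tested genes in 9 lists (y axis), coloured by call; points are genes and the black bar is the median of the list. List medians lay between -0.26 and 0.38, and every list held genes that were called higher, as were 32.3% of all tested genes.

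Among LXR partners and coregulators, 21 of 23 were tested, and 12 were called higher, 3 lower and 6 were not called, with a median of 0.38, where 32.3% of all tested genes were called higher and 32.1% lower. After removal of the trend with gene length 8 were higher and 5 lower, and the median was 0.10. The corepressor Ncor1 averaged 391 ± 10.4 CPM with overexpression and 217 ± 33.0 CPM in controls (edgeR, adjusted p = 6.06e-05). Nrip1, also called RIP140, rose by 0.97 and Tbl1xr1, a corepressor exchange factor, by 1.21 on the log2 scale (edgeR, adjusted p = 7.56e-05 and 1.11e-04). Over the same settings Nrip1 lay between 0.45 and 1.14, and Tbl1xr1 between 0.82 and 1.45. Of the corepressor complex of Ncor1 and Tbl1xr1, Hdac3 was called lower (log2 fold change -0.36) and Gps2 was not called. The coactivators Ncoa1, Ncoa6 and Med1 were called higher. These 5 genes were picked with their values in view, and their values under other settings are not given. The coactivator Ncoa2 rose by 0.81 on the log2 scale, but its call was lost when the length trend was removed (log2 fold change 0.10), and Ncoa3 with a log2 fold change of 0.24 was not called. Rxra, the usual partner of LXR in liver, averaged 86.6 ± 3.66 CPM with overexpression and 84.5 ± 10.5 CPM in controls and was not called. Rxrb fell by 0.66 on the log2 scale (edgeR, adjusted p = 0.00214) and was named after its values were seen.

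Scavenger receptors and regulators of Scarb1 had 9 of 14 genes tested, with 3 higher, 1 lower and 5 not called (median 0.073, and 0.41 after removal of the length trend or 0.35 of the GC trend). Nr5a2, the nuclear receptor LRH-1, averaged 16.3 ± 3.14 CPM with overexpression and 3.58 ± 0.723 CPM in controls, a log2 fold change of 2.17 (edgeR, adjusted p = 2.04e-06). Pdzk1, the scaffold that keeps SR-BI at the hepatocyte surface in mice, averaged 6.32 ± 0.890 CPM with overexpression and 2.03 ± 0.499 CPM in controls, a log2 fold change of 1.62 (edgeR, adjusted p = 3.54e-05). Both were called higher, as were 32.3% of all tested genes, and a link to the values of Scarb1 was not tested. Olr1, the scavenger receptor LOX-1, fell by 0.99 on the log2 scale (edgeR, adjusted p = 0.00249). Stab1 rose by 0.96 on the log2 scale with a call that was lost without control library 1 (log2 fold change 0.96), without overexpression library 3 (0.61) or with the length trend removed (0.47). Slc9a3r1 and Slc9a3r2, further PDZ scaffolds, were not called.

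The HDL list had 11 of 18 genes tested, with 2 higher, 3 lower and 6 not called (median -0.14, and 0.21 after removal of the length trend). Without control library 3 the calls were 2 higher and 6 lower. Atp5b, a mitochondrial ATP synthase subunit also found as an apolipoprotein A-I receptor at the cell surface, averaged 1078 ± 29.2 CPM with overexpression and 2497 ± 507 CPM in controls (edgeR, adjusted p = 1.72e-05). Ttc39b, which promotes degradation of LXR protein in mice, averaged 49.1 ± 5.33 CPM with overexpression and 25.7 ± 7.73 CPM in controls (edgeR, adjusted p = 6.3e-04). The cargo receptor Surf4 fell by 0.48 and the sorting receptor Sort1 rose by 0.52 on the log2 scale (edgeR, adjusted p = 0.00506 and 0.00371), the second with a call lost after removal of the length trend. Pcolce was not called, nor was Sar1b at a log2 fold change of -0.29 (edgeR, adjusted p = 0.0504), which was called lower in 7 of 18 other settings.

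Oxysterol genes supply the ligands of LXR, and 7 of 13 were tested, with 2 higher, 3 lower and 2 not called (median -0.26). Ebp and Dhcr7, late enzymes of cholesterol synthesis, fell by 1.24 and 0.82 on the log2 scale (edgeR, adjusted p = 3.13e-05 and 2.44e-04). Cyp27a1, which makes 27-hydroxycholesterol, averaged 21.8 ± 0.421 CPM with overexpression and 13.2 ± 2.54 CPM in controls (edgeR, adjusted p = 8.15e-04). Sult2b1 and Hsd11b1 were not called. In the list of intracellular sterol transport 26 of 27 genes were tested, with 8 higher, 6 lower and 12 not called (median 0.051). Tmem97, a partner of the lysosomal cholesterol exporter NPC1, fell to 15.2 ± 1.48 CPM with overexpression, against 83.9 ± 19.5 CPM in controls (edgeR, adjusted p = 3.61e-07). Npc2, which carries cholesterol in the lysosome, fell by 0.97, Stard5 by 1.27 and Lamp1 by 0.72 on the log2 scale (edgeR, adjusted p = 8.91e-05, 6.04e-06 and 7.31e-05), and Lamp2 and Osbp were not called.

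Targets of MYLIP and other sterol uptake receptors had 14 of 15 genes tested, with 3 higher, 5 lower and 6 not called (median -0.10, and 0.025 with scaling by library totals). After removal of the length trend 2 were higher and 8 lower with a median of -0.42, and after removal of the GC trend 3 and 8 with a median of -0.32. Lrp1 fell by 0.86 and Lrp6 rose by 0.99 on the log2 scale (edgeR, adjusted p = 7.22e-05 and 3.87e-05), and Lrp5 and Ube2d3 were not called.

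A list of lysophospholipid acyltransferases and of the phospholipases Pla2g4a, Pla2g6 and Pla2g15 had 11 of 16 genes tested. Of these, 1 was called higher, 5 lower and 5 were not called (median -0.23). The lower calls were Agpat1, Agpat2, Agpat3, Agpat5 and Pla2g15, while Mboat7 and Lpcat1 were not called. After removal of the GC trend 4 were higher and 3 lower, and with library totals 2 and 3. Agpat5, Agpat2 and Agpat3, which acylate lysophosphatidic acid, fell by 0.75, 0.65 and 0.48 on the log2 scale (edgeR, adjusted p = 3.37e-04, 0.00394 and 0.00587), and the call of Agpat2 was lost after removal of the length trend. Mboat1 rose by 0.45 on the log2 scale (edgeR, adjusted p = 0.00773), and Lpcat4 and Lpgat1 were not called. Other ABCA and ABCG transporters had 8 of 18 genes tested, with 3 higher, 0 lower and 5 not called (median 0.10), while after removal of the length trend 2 were higher and 3 lower, after removal of the GC trend 6 and 2, and without control library 3, 3 and 2. Abca8b averaged 32.1 ± 3.05 CPM with overexpression and 12.1 ± 4.77 CPM in controls (edgeR, adjusted p = 1.15e-04). Abcg4, the relative of Abcg1 known from brain, averaged 1.68 ± 0.268 CPM with overexpression and 0.539 ± 0.223 CPM in controls (edgeR, adjusted p = 8.07e-04). Abca4, the retinal transporter, rose by 1.52 on the log2 scale (edgeR, adjusted p = 0.00401), with a call lost after removal of the length trend, and Abca3 and Abca2 were not called.

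The genes whose pattern over the 8 libraries was most like Abca1, by the root mean square difference of centred log2(CPM + 0.5), were Fxyd2 (0.525), Mt2 (0.530), Cckar (0.565), Ddit4l (0.581) and Mt1 (0.593). The metallothionein Mt2 averaged 3.27 ± 0.530 CPM with overexpression and 170 ± 24.6 CPM in controls. For Scarb1 they were S100a8 (0.191), Ada (0.196), Chac1 (0.208), Krt4 (0.241) and Evc (0.250). Evc, a ciliary protein, also had 0 overexpression counts, against 268 in controls, and S100a8 had 3 against 226. The added 0.5 limits how far a gene near 0 can fall on this scale. Ada, Chac1 and Krt4 still averaged 2.06 ± 0.407, 5.29 ± 0.450 and 0.639 ± 0.160 CPM with overexpression, where Scarb1 had no count. For Nr1h3 the most alike genes were Fen1 (0.0617), Dusp14 (0.0674), Ddx39 (0.0689), Lsm2 (0.0740) and Gadd45b (0.0766). The flap endonuclease Fen1 averaged 91.5 ± 7.87 CPM with overexpression and 232 ± 44.2 CPM in controls.

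Of the nearest tested neighbours of Abca1 and Nr1h3, 1 was called lower, 2 higher and 1 was not called. Beside Abca1, Nipsnap3b averaged 16.7 ± 1.01 CPM with overexpression and 28.1 ± 5.54 CPM in controls (edgeR, adjusted p = 8.51e-04), a call lost after removal of the length trend. Slc44a1, a choline transporter on the other side of Abca1, rose by 0.92 on the log2 scale (edgeR, adjusted p = 2.24e-04). Beside Nr1h3, Madd was not called and the lysosomal phosphatase Acp2 rose by 0.42 on the log2 scale (edgeR, adjusted p = 0.0158), a call lost without control library 2 at a log2 fold change of 0.37.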

How the data were processed

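RNA-seq of 8 AML-12 libraries was analysed, 4 per group, with groups and replicate numbers from the sample titles. The authors deposited raw counts per gene symbol, whole numbers with no normalization. Reads were processed with FastQC, STAR and HTSeq on mm10, per the submitters' processing notes. Not given in the sources used here are versions, annotation and strand setting.

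From these counts, 11520 genes passed filterByExpr (minimum count 10) in edgeR 4.0.16 under R 4.3.3. Libraries were scaled by trimmed-mean factors. Groups were compared by the two-sided quasi-likelihood test with Benjamini-Hochberg adjustment, called at 0.05. The SE is the log2 fold change over the square root of F. Floors are 3 counts over a group, 0.0548 CPM with overexpression and 0.0509 CPM in controls. Intervals are exact binomial at 95%, and they and the floors cover only counting error. GENCODE M21 on GRCm38 held 21926 of the 21983 symbols, and GC content came from its transcripts. Promoters came from RefSeq on GRCm38.p6.

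The members and lists were chosen with earlier results of these data known. Genes named from a list were up to 4 called genes with the smallest p averaging at least 1 CPM and the 2 most abundant uncalled genes. For Abca1, Scarb1 and Nr1h3 the 5 most alike tested genes were named, and for these and the Abcg5 and Abcg8 pair the nearest tested gene on each side. Some genes under these rules are not reported here. The fit was tested on simulated data of 11428 genes with 50 changed at each fold. It recovered 38% of 1.5-fold, 92% of 2-fold and 100% of 4-fold and 8-fold changes, with 8 false calls. Small changes could thus go uncalled. Far fewer genes were changed there than were called in the real data, so scaling under widespread change was not tested. Alternatives were other scalings and filters, removal of length and GC trends, a replicate block, each library left out, DESeq2 1.42.0 and limma 3.58.1 (voom).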

Additional observations from a re-analysis of the deposited data

Results flagged for a closer look

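Values here are CPM of a library that lay apart from the other 3 of its group by Dixon's test at 95%, with 10 of 155 groups doing so where chance gives about 5%. Control library 3 was that library for 8 genes. Among the members it was Abcg8, with 0.687 CPM against 0.322 to 0.384 in the other controls, which is 11 counts. Control library 3 was above the other controls for Abca8b (19.2 CPM against 8.76 to 10.3), Lrp6 (170 against 118 to 126), Lrpprc (124 against 72.4 to 79.7), Tbl1xr1 (51.4 against 29.8 to 32.5) and Ttc39b (37.2 against 20.7 to 22.6). It was below them for Mt2 (133 CPM against 179 to 184) and Stard5 (24.1 against 30.2 to 31.2). Overexpression library 1 was above the other overexpression libraries for Atp5b (1121 CPM against 1058 to 1068) and Ncoa3 (114 against 95.7 to 98.2).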

How the results depend on the processing

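The number of genes called was 7417 in the reported fit and 6659 to 9001 over 18 settings, with 9001 without control library 3. It was 7129 with the replicate block. Replicate numbers did not pair the libraries: deviations of same-numbered libraries correlated by 0.023, -0.011, -0.077 and -0.119. The share of calls that were higher was 50.2% in the reported fit and 58.4% with library totals. Directions of Nr1h3, Nr1h2 and Abca1 held in all settings, and that of Lpcat3 did not. Named genes other than members changed sign with these log2 fold changes. With the GC trend removed they were 0.15 for Abca2, 0.20 for Abca3, 0.074 for Fasn, 0.061 for Srebf1, -0.34 for Hsd11b1, 0.21 for Lpcat4, -0.12 for Lpgat1, 0.12 for Lrp5, -0.16 for Lrpprc, 0.15 for Pcolce and 0.27 for Slc9a3r1. With the length trend removed they were 0.17 for Lpcat4, -0.065 for Lpgat1, -0.33 for Lrpprc, -0.30 for Madd, -0.076 for Ncoa3, -0.094 for Rxra, 0.34 for Sar1b and 0.41 for Slc9a3r1. With library totals they were 0.046 for Abca3, 0.044 for Lpcat4 and 0.095 for Slc9a3r1. Hsd11b1 was -0.0034 with the replicate block and -0.14 with voom, where Slc9a3r2 was -0.040. Lrpprc was -9.9e-05 with median-ratio scaling, -0.019 with no filter and -0.013 with DESeq2. Leaving out 1 library gave ranges of -0.19 to 0.18 for Hsd11b1, -0.23 to 0.0097 for Lpcat4, -0.082 to 0.19 for Lrpprc, -0.063 to 0.11 for Rxra, -0.20 to 0.069 for Slc9a3r1 and -0.13 to 0.15 for Slc9a3r2. Of 21 named genes not called, 19 were called in the same direction in at least 1 setting, 12 of them without control library 3: Abca2 (-0.27), Abca3 (-0.17), Fasn (-0.37), Lpcat4 (-0.23), Lpgat1 (0.35), Lrp5 (-0.31), Ncoa3 (0.28), Pcolce (-0.26), Sar1b (-0.27), Slc9a3r1 (-0.20), Srebf1 (-0.40) and Sult2b1 (-0.40). Lamp2 (-0.30) and Sar1b (-0.38) were called without control library 4. Some of the sign changes above were themselves called, so for these genes the called direction depended on the processing. With the GC trend removed these were Abca2, Abca3, Lpcat4, Pcolce and Slc9a3r1. With the length trend removed they were Lrpprc, Madd and Slc9a3r1. The causes were not tested. Depth limits Abcg1, Abcg5, Abcg8 and Mylip, whose pooled counts were at most 26 per group.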
